A study of Homo sapiens with 91 samples.

Results

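The 10 genes described here encode 3 assemblies that ride with RNA polymerase II early in transcription: the 4 subunits of the negative elongation factor NELF (NELFA, NELFB, NELFCD and NELFE), both subunits of DSIF (SUPT4H1 and SUPT5H) and 4 subunits of the PAF1 complex (PAF1, CTR9, CDC73 and LEO1). They were chosen by symbol, as subunits of the complexes, from 62710 genes in the tables, and each symbol matched 1 gene identifier. Their transcript levels were read from bulk RNA sequencing of 3 human cancer cell lines, in 91 libraries that fall into 23 groups. Cells received KI-CDK9d-32, a compound that degrades the kinase CDK9, or KB-0742, a CDK9 inhibitor, or the solvent DMSO, for 2, 4 or 8 h. MOLT4 is a T-cell acute lymphoblastic leukemia line (35 libraries), PSN1 a pancreatic adenocarcinoma line (32 libraries) and RH4 a rhabdomyosarcoma line (24 libraries). MOLT4 had all 3 treatments at all 3 times, PSN1 had KI-CDK9d-32 and DMSO at 2, 4 and 8 h and KB-0742 at 4 and 8 h, and RH4 had all 3 treatments at 4 and 8 h. Every group had 4 replicates except MOLT4 with DMSO for 4 h, which had 3. The labels give no dose for either compound, so that every comparison of KI-CDK9d-32 with KB-0742 is at a matched time and at doses not given in the sources used here. Each line is a single established cell line, and within a line the labels name no genetic change that sets 1 group apart from another.

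Total gene counts ran from 1598283 to 3240753 per library. A fixed amount of synthetic spike-in RNA had been added to each cell lysate, and in MOLT4 KI-CDK9d-32 libraries at 8 h held 39.9 ± 14.8% of their counts as spike-ins, KB-0742 libraries 21.5 ± 2.59% and DMSO libraries 14.5 ± 1.91% (SD, n = 4 each). In PSN1 at 8 h the KI-CDK9d-32 libraries held 17.3 ± 2.28%, the KB-0742 libraries 17.1 ± 3.58% and the DMSO libraries 12.6 ± 0.461%. In RH4 at 8 h the KI-CDK9d-32 libraries held 12.9 ± 2.03%, the KB-0742 libraries 15.1 ± 2.22% and the DMSO libraries 9.71 ± 2.07%. A larger share means less cellular RNA relative to the spike-ins, and in bulk samples fewer cells and less RNA per cell cannot be told apart. Fold changes are therefore given on 2 scales: relative to the other genes of a library (TMM scaling, the scale of every value unless stated), and relative to the spike-in RNA. The markers listed for each line's own tissue were higher than those of the other 2 in 35 of 35 MOLT4, 32 of 32 PSN1 and 24 of 24 RH4 libraries, although CDH1 was at 0 in 23 of 32 PSN1 libraries and MYH3 at 0 in 3 of 24 RH4 libraries. The compounds act on CDK9 protein, and the log2 fold change of CDK9 mRNA with KI-CDK9d-32 at 8 h was 0.09 in MOLT4, 0.12 in PSN1 and 0.64 in RH4, so the mRNA does not check the labels.

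Shortly after starting, RNA polymerase II is held in a paused state by DSIF and NELF. P-TEFb, the kinase made of CDK9 and a cyclin T, phosphorylates the polymerase, NELF and the SPT5 subunit of DSIF. NELF then leaves, DSIF stays on as a positive elongation factor, and the PAF1 complex binds the moving polymerase, where it helps histone H2B ubiquitylation and further elongation. The genes that encode these factors are themselves transcribed by the polymerase they act on.

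Each gene has 1 locus, given here on GRCh38 with the GENCODE 29 gene span. NELFA, whose product contacts the polymerase, lies on chr4:1982714-2041903 on the minus strand. NELFB, which bridges the complex, lies on chr9:137255173-137273546 (plus), NELFCD, the partner of NELFA, on chr20:58981208-58995133 (plus), and NELFE, which carries an RNA recognition motif, on chr6:31952087-31959110 (minus). SUPT4H1, the small subunit of DSIF (SPT4), lies on chr17:58345175-58353093 (minus) and SUPT5H, the large subunit (SPT5), on chr19:39436156-39476670 (plus). PAF1, a core subunit that pairs with LEO1, lies on chr19:39385852-39391195 (minus), 44961 bases from SUPT5H. CTR9, the scaffold of the complex, lies on chr11:10750987-10801625 (plus), CDC73, which encodes the tumour suppressor parafibromin, on chr1:193121800-193254815 (plus), and LEO1 on chr15:51938025-51971806 (minus). The libraries were made with a kit that does not mark strand, and reads from genes that overlap on opposite strands cannot be told apart. The CTR9 span overlaps that of EIF4G2 by 4576 bases, with a mean count of 818 for EIF4G2 per library, and the LEO1 span overlaps TMOD3 and MAPK6, which had mean counts of 24.9 and 29.8. NELFE shares 31 bases with SKIV2L, and SUPT4H1 and CDC73 overlap TSPOAP1-AS1 and B3GALT2, at mean counts of 4.0 and 1.65.

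RefSeq promoters (GRCh38.p14, 250 bases before the transcription start and 50 after it) were at hand for 9 of the 10 genes, with CDC73 not among them. The 4 shown, 1 or 2 of each complex, belong to genes that were called in at least 6 of the 15 comparisons with DMSO. SUPT5H, called in 4 with each compound, also met this mark and is not shown. The 4 promoters are printed 5′ to 3′ on the strand of the gene. Capitals mark matches, on either strand, to any of 4 motifs: TATAAA (the TATA box), GGGCGG (the GC box bound by SP1), CCGGAAGT (bound by ETS factors) and CCAAT (bound by NF-Y). No base of these 4 fell in matches to 2 different motifs.
NELFA, chr4:2008925-2009224 (minus): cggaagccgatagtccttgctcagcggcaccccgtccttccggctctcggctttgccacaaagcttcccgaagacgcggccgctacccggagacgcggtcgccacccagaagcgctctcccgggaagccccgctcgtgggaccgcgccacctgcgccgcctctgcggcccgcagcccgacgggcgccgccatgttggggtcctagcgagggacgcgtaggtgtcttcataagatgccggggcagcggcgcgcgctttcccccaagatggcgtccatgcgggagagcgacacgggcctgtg
SUPT4H1, chr17:58352152-58352451 (minus): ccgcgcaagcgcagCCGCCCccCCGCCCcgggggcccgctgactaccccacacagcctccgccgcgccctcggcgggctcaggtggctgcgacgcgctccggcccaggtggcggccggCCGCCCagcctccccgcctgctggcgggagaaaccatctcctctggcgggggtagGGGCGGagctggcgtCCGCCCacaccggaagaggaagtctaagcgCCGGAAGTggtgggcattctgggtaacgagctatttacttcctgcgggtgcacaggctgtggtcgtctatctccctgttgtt
PAF1, chr19:39391057-39391356 (minus): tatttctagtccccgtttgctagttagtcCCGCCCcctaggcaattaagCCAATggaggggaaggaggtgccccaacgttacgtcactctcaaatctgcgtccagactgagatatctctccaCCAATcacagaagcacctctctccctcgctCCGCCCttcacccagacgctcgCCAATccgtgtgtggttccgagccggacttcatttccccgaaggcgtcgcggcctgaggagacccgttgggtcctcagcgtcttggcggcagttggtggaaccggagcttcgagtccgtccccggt
LEO1, chr15:51971729-51972028 (minus): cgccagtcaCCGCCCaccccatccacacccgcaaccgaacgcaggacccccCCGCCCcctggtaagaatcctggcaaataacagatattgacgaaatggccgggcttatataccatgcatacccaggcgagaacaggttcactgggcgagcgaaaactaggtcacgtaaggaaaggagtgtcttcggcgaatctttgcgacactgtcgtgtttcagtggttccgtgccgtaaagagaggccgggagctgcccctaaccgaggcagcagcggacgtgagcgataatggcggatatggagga
The NELFA window holds none of the 4 motifs. It lies inside the GENCODE span of this minus-strand gene, which runs to 2041903, so that starts further upstream were not searched. The SUPT4H1 window also lies inside its span, which runs to 58353093. The SUPT4H1 window holds 5 GC boxes and 1 ETS motif, the PAF1 window 3 CCAAT boxes and 2 GC boxes, and the LEO1 window 2 GC boxes. Among the 9 genes, GGGCGG was found in 8, against 45% of all 35116 RefSeq promoters of this length, and CCGGAAGT in 3 (NELFE, SUPT4H1 and CTR9), against 4.14%. CCAAT was found in PAF1 alone among the 9 (34.6% of all promoters), and TATAAA in 0 of the 9 (11.5%). The share of G and C ran from 57.7% in LEO1 to 79.3% in NELFB, against a median of 58.7% over all promoters. A match is a description of the letters and not evidence of a bound site.

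In cells given DMSO, levels per gene length (TPM, a scale on which the genes of every library sum to the same total) differed widely between subunits of the same complex. In MOLT4, NELFE was highest at 246 ± 17.0 TPM, followed by SUPT4H1 at 140.0 ± 13.6 and NELFCD at 104 ± 9.12 TPM (SD, n = 11). PAF1 averaged 39.4 ± 4.73, NELFA 32.3 ± 2.89, SUPT5H 20.9 ± 3.15 and LEO1 14.3 ± 2.48 TPM in the same libraries. CTR9 (5.39 ± 0.983), NELFB (4.98 ± 1.31) and CDC73 (2.11 ± 0.637 TPM) were lowest, each far below other subunits of its complex. The ranges over libraries did not overlap between NELFE and SUPT4H1 (1.76-fold), NELFCD and PAF1 (2.63-fold), NELFA and SUPT5H (1.55-fold), LEO1 and CTR9 (2.66-fold), or NELFB and CDC73 (2.36-fold). The other neighbours in the order overlapped.

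In PSN1 the top 3 were SUPT4H1 at 60.2 ± 12.8, NELFCD at 57.5 ± 5.20 and NELFE at 53.6 ± 7.57 TPM (SD, n = 12), whose ranges overlapped. Below them came PAF1 (27.8 ± 4.26), SUPT5H (23.1 ± 3.48), NELFA (13.8 ± 2.66), LEO1 (9.21 ± 2.10), NELFB (3.43 ± 1.18), CTR9 (2.63 ± 0.714) and CDC73 (2.40 ± 0.373 TPM). In RH4, NELFE was again first at 119.9 ± 9.02 TPM, ahead of SUPT4H1 (87.9 ± 12.5), NELFCD (70.1 ± 10.2), PAF1 (38.9 ± 6.49), SUPT5H (31.5 ± 4.71), NELFA (19.8 ± 3.89), LEO1 (11.1 ± 3.27), CTR9 (5.69 ± 1.26), NELFB (4.05 ± 0.924) and CDC73 (1.77 ± 0.432 TPM; n = 8). In PSN1 the only neighbours without overlap were NELFE and PAF1 (1.93-fold) and LEO1 and NELFB (2.68-fold). In RH4 they were NELFE and SUPT4H1 (1.36-fold), NELFCD and PAF1 (1.80-fold) and NELFB and CDC73 (2.29-fold). LEO1, NELFB, CTR9 and CDC73 had the 4 lowest means in each line.

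**Figure D1:**
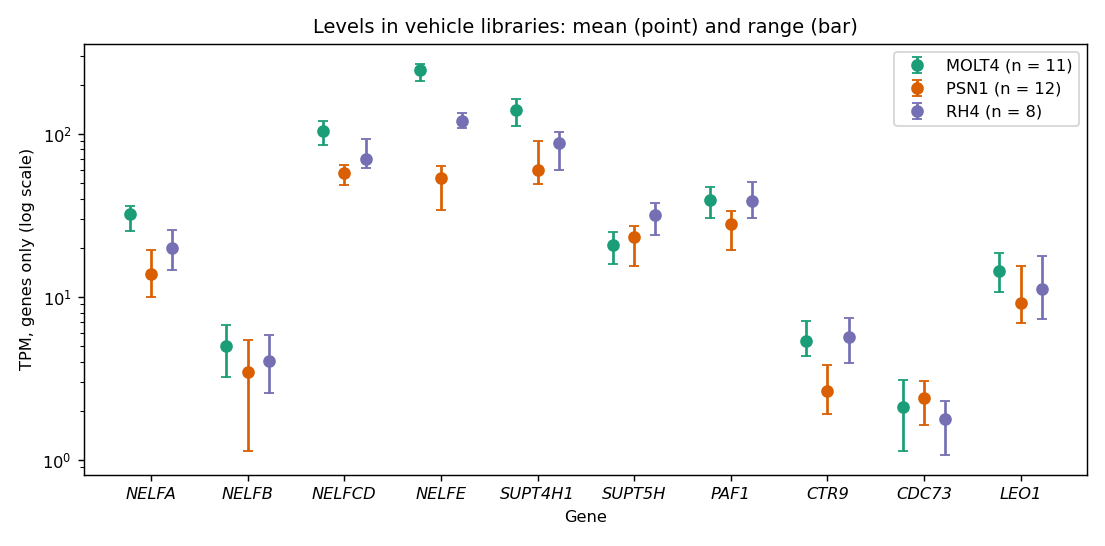
Levels of the 10 genes in DMSO libraries of each line, in TPM on a log axis. Points are means and bars the range over libraries (MOLT4 n = 11, PSN1 n = 12, RH4 n = 8). NELFE, SUPT4H1 and NELFCD lie at the top in every line, and CDC73 lies at the bottom with means of 2.11, 2.40 and 1.77 TPM.

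In MOLT4 treated with KI-CDK9d-32 for 8 h, transcripts of PAF1, LEO1, NELFA and CTR9 fell, SUPT5H rose relative to the other genes but was lower by 2.12 log2 units relative to the spike-ins, and the other 5 genes were not called. Called lower were 3 of 4 PAF1 complex subunits, 1 of 4 NELF subunits and 0 of 2 DSIF subunits, against 28.7% of all genes, and no test compared the complexes. Called means an adjusted p under 0.05 in edgeR's quasi-likelihood test, and levels by library are in CPM (each count as a share of the TMM-scaled library size, on the usual CPM scale). The labels call the replicates biological without mentioning separate cultures, and the p-values speak only to how far these libraries vary, which may be technical. The count of 5 called of 10 compares with 49.6% of the 11664 genes tested in this comparison, a share near the background. The sizes of the 4 falls were not ranked against those of all genes. The median log2 fold change of the 10 genes was 0.0043, against -0.18 over all genes, and the median of the PAF1 complex was -1.83.

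PAF1 stood at 11.1, 12.2, 11.1 and 11.1 CPM in the 4 KI-CDK9d-32 libraries and at 85.8, 63.6, 62.4 and 64.1 CPM in the DMSO libraries. The treated libraries were all low and tightly grouped, with no overlap. Its log2 fold change was -2.59 ± 0.18 (SE; edgeR adjusted p = 2.53e-17). LEO1, the partner of PAF1 in the complex, was at 4.59, 7.93, 0.922 and 0 CPM with KI-CDK9d-32, from raw counts of 0 to 13, against 27.0, 25.2, 21.8 and 24.6 CPM with DMSO. Each treated library lay below each DMSO library, and the log2 fold change was -2.80 ± 0.41 (edgeR adjusted p = 1.55e-07). CTR9 was at 17.7, 9.76, 6.46 and 9.94 CPM with KI-CDK9d-32 and at 18.8, 28.99, 25.4 and 20.4 CPM with DMSO, a change of -1.06 ± 0.25 (edgeR adjusted p = 0.000384) without overlap, although the first treated replicate came close to the lowest DMSO library. For EIF4G2, which overlaps CTR9, the log2 fold change was -0.32 ± 0.11. CDC73, the fourth subunit, was spread over 3.69 to 17.0 CPM with KI-CDK9d-32 against 6.69 to 13.6 CPM with DMSO, and its change of 0.09 ± 0.32 has a 95% interval of -0.53 to 0.71.

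Within NELF the pattern was uneven. NELFA was at 8.52, 17.7, 9.22 and 16.4 CPM with KI-CDK9d-32 for 8 h, against 64.8, 66.4, 69.1 and 69.9 CPM with DMSO. All 4 treated libraries were far below the narrow DMSO group, and the change was -2.34 ± 0.22 (edgeR adjusted p = 9.07e-13). NELFE, at 227, 232, 287 and 264 CPM against 277, 255, 248 and 288 CPM, overlapped with its DMSO group (change -0.08 ± 0.11, 95% interval -0.29 to 0.13). NELFCD (0.11 ± 0.11) and NELFB (0.39 ± 0.45) also overlapped with DMSO. In DSIF, SUPT5H was at 140.3, 106, 70.1 and 109 CPM with KI-CDK9d-32 and 77.4, 54.2, 62.4 and 78.7 CPM with DMSO: 3 of 4 treated libraries were above every DMSO library and the third replicate was within the DMSO range. The change was 0.65 ± 0.15 (edgeR adjusted p = 0.000413), and -2.12 with spike-in scaling. SUPT4H1, at 88.5, 113, 109 and 133 CPM against 104, 94.1, 104 and 93.2 CPM, had a log2 fold change of 0.17 ± 0.12 and was not called.

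Relative to the spike-ins, all 10 genes were called lower in this comparison, with log2 fold changes from -5.61 (LEO1) to -2.12 (SUPT5H). The background on that scale was that 91% of genes tested were called lower, at a median of -2.99, so that LEO1 (-5.61), PAF1 (-5.42), NELFA (-5.10) and CTR9 (-3.84) lay below the median gene, and the other 6, from -2.94 (NELFE) to -2.12 (SUPT5H), above it. The spike-in share of the third KI-CDK9d-32 replicate was 61.5%, the highest of all libraries. Leaving it out together with 2 libraries of the 4 h groups that had shares above 38% gave changes of -2.55 for PAF1, -2.54 for LEO1, -2.20 for NELFA, -0.88 for CTR9 and 0.83 for SUPT5H (TMM scaling), and NELFCD was then also called (0.25, edgeR adjusted p = 0.0343).

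**Figure D2:**
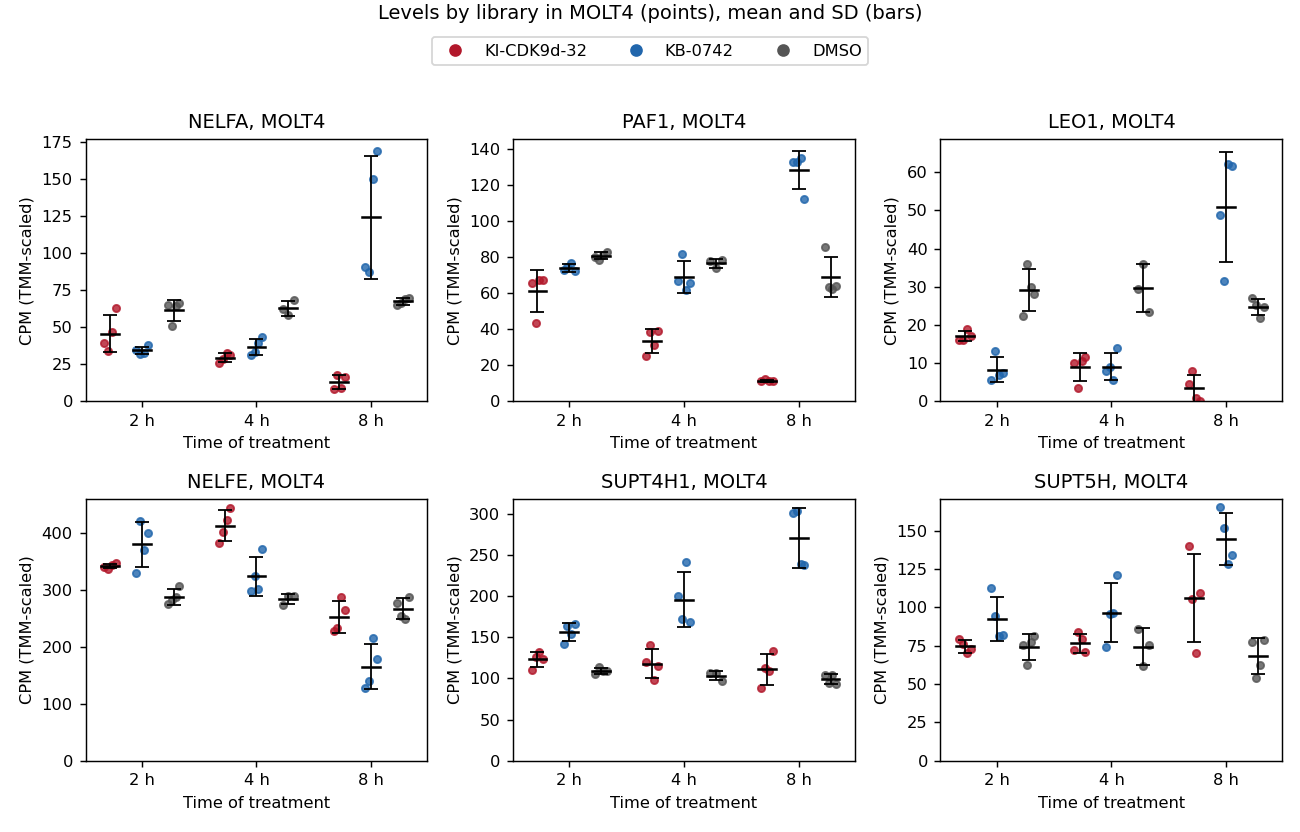
Levels in CPM of NELFA, PAF1, LEO1, NELFE, SUPT4H1 and SUPT5H in each MOLT4 library after 2, 4 and 8 h, with KI-CDK9d-32 left, KB-0742 in the middle and DMSO right at each time. Points are libraries and bars the mean ± SD (n = 4, or 3 for DMSO at 4 h). On this scale, relative to the other genes, PAF1 at 8 h averaged 11.4 CPM with KI-CDK9d-32 and 128 CPM with KB-0742, against 69.0 CPM with DMSO; relative to the spike-ins, its log2 fold changes were -5.42 for KI-CDK9d-32 and -0.44 for KB-0742, which was not called.

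The falls in MOLT4 with KI-CDK9d-32 were already called at 4 h and, for PAF1, at 2 h. At 2 h PAF1 was the 1 member called, among 9.98% of genes, at 65.6, 43.6, 67.7 and 67.5 CPM against 80.2, 78.6, 81.4 and 83.2 CPM with DMSO (-0.40 ± 0.13, edgeR adjusted p = 0.0431). The groups did not overlap, but the call was lost when any 1 of 6 libraries of 8 was left out (edgeR adjusted p up to 0.259), and the gene was not called with spike-in scaling (-0.78). LEO1 (-0.77 ± 0.29, without overlap), CTR9 (-0.46 ± 0.22) and NELFA (-0.43 ± 0.18) also had negative values at 2 h. They were not called (edgeR adjusted p of 0.0826, 0.195 and 0.119), and whether PAF1 fell earlier than these genes was not tested. At 4 h, 5 of 10 members were called, against 32.6% of genes. PAF1 stood at 25.2, 38.5, 31.5 and 39.0 CPM, against 77.9, 74.0 and 78.3 CPM with DMSO (-1.20 ± 0.15, edgeR adjusted p = 1.46e-08). LEO1 (-1.77 ± 0.34), NELFA (-1.10 ± 0.20) and CTR9 (-0.996 ± 0.25) fell at 4 h too, none with overlap. NELFE rose at 4 h, at 382, 402, 423 and 444 CPM with KI-CDK9d-32 against 274, 289 and 289 CPM with DMSO (0.54 ± 0.11, edgeR adjusted p = 0.000172), although its sign turned to -0.42 with spike-in scaling. These 5 calls held when any 1 of the 7 libraries was left out.

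The change between 4 h and 8 h was tested as a difference of the 2 effects. With KI-CDK9d-32 in MOLT4, 3 members passed, against 12.5% of genes: the further change was -1.39 ± 0.25 for PAF1, -1.24 ± 0.31 for NELFA and -0.62 ± 0.16 for NELFE. For LEO1 the further change of -1.03 ± 0.56 was not called, and for CTR9 it was -0.07 ± 0.35. The falls of PAF1 and NELFA thus deepened between the times, while for CTR9 the 95% interval of the further change ran from -0.76 to 0.63. With spike-in scaling all 10 values were below 0 (PAF1 -3.30, NELFA -2.98, NELFE -2.51), at a median of -1.79 over all genes.

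In MOLT4 with KB-0742, NELFA and LEO1 fell at 2 h and 4 h and were higher than DMSO at 8 h relative to the other genes, but not relative to the spike-ins. At 2 h NELFA stood at 34.7, 32.0, 32.9 and 37.7 CPM with KB-0742 and at 64.7, 50.8, 64.2 and 66.2 CPM with DMSO (-0.84 ± 0.18, edgeR adjusted p = 0.000329). LEO1 stood at 5.58, 13.1, 6.97 and 7.30 CPM, against 22.4, 35.8, 29.9 and 28.0 CPM (-1.81 ± 0.32, edgeR adjusted p = 1.69e-05). Both groups of each gene were apart, and both genes were lower with spike-in scaling as well (-1.66 and -2.61). SUPT4H1 (0.52 ± 0.12), NELFE (0.40 ± 0.10) and NELFCD (0.32 ± 0.10) rose relative to the other genes, but with spike-in scaling were at -0.27, -0.40 and -0.49. The 5 calls of 10 compare with 26.1% of genes, and the NELFCD call was lost without the second DMSO replicate (edgeR adjusted p = 0.0508). At 4 h, 3 of 10 were called, against 35.8% of genes: LEO1 (-1.65 ± 0.34) and NELFA (-0.77 ± 0.20) were lower and SUPT4H1 was higher (0.91 ± 0.13, but -0.47 with spike-in scaling). With spike-in scaling 8 of 10 members were called lower at 4 h, all except the 2 DSIF genes. The median of the 10 on that scale was -1.35, against -1.38 over all genes, and the count cannot be read as particular to the members.

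At 8 h with KB-0742, 9 of 10 members were called, against 49.2% of genes: 7 were higher relative to the other genes, where 23.4% of genes were, and NELFCD and NELFE were lower. The median log2 fold change of the 10 was 0.89, against -0.10 over all genes, and -0.39 against -1.41 with spike-in scaling. NELFA was now at 90.8, 87.0, 149.7 and 169 CPM with KB-0742, above every DMSO library (64.8 to 69.9 CPM), with replicates 1 and 2 well below replicates 3 and 4 (0.88 ± 0.17, edgeR adjusted p = 2.87e-05). LEO1 was at 48.8, 31.4, 62.0 and 61.5 CPM (1.05 ± 0.28) and PAF1 at 133, 133, 135 and 112 CPM (0.89 ± 0.13), each above all 4 DMSO libraries. CTR9 reached 34.3, 54.0, 40.5 and 44.8 CPM (0.89 ± 0.21), and CDC73 29.4, 13.6, 22.9 and 19.4 CPM (1.00 ± 0.29), the only comparison with DMSO in which CDC73 was called on this scale. With spike-in scaling these 5 stood at -0.39, -0.25, -0.44, -0.39 and -0.38, and 0 of them were called on that scale. EIF4G2, which overlaps CTR9, went the other way at -1.40 ± 0.12.

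Both DSIF genes rose with KB-0742 at 8 h relative to the other genes. SUPT4H1 stood at 301, 303, 239 and 238 CPM, against 104, 94.1, 104 and 93.2 CPM with DMSO, the largest change of a member in this comparison (1.45 ± 0.12, edgeR adjusted p = 9.88e-15; 0.11 with spike-in scaling). SUPT5H stood at 165, 152, 128 and 134 CPM (1.08 ± 0.15; -0.28 with spike-in scaling). In NELF, NELFE fell to 127, 139, 215 and 179 CPM, all below the DMSO libraries of 248 to 288 CPM (-0.69 ± 0.11, edgeR adjusted p = 4.61e-07), and NELFCD fell to 106, 118, 132 and 152 CPM, against 181 to 214 CPM (-0.60 ± 0.11). Both were also called lower with spike-in scaling (-2.0 and -1.91). NELFB, at 2.26, 3.67, 16.2 and 15.2 CPM, split between replicates 1 and 2 and replicates 3 and 4. It was not called relative to the other genes (-0.16 ± 0.44), but was called lower with spike-in scaling. The subunits of NELF thus moved in different directions relative to the other genes, with NELFA higher (-0.39 and not called with spike-in scaling) while NELFE and NELFCD were lower.

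From 4 h to 8 h the KB-0742 effect changed for 8 of 10 members in MOLT4, against 17.8% of genes. The effect at 8 h was higher than at 4 h for LEO1 (2.70 ± 0.44), NELFA (1.65 ± 0.26) and PAF1 (1.04 ± 0.20), and lower for NELFE (-0.89 ± 0.16) and NELFCD (-0.60 ± 0.15). SUPT5H (0.70 ± 0.22), SUPT4H1 (0.54 ± 0.17) and CTR9 (0.93 ± 0.32) were called too, but these calls were lost without any 1 of 3, 6 and 7 of the 15 libraries. With spike-in scaling the values were alike (2.60 for LEO1, 1.74 for NELFA, 1.00 for PAF1 and -0.91 for NELFE), but 0 were called on that scale (0% of genes), where the errors are larger.

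**Figure D3:**
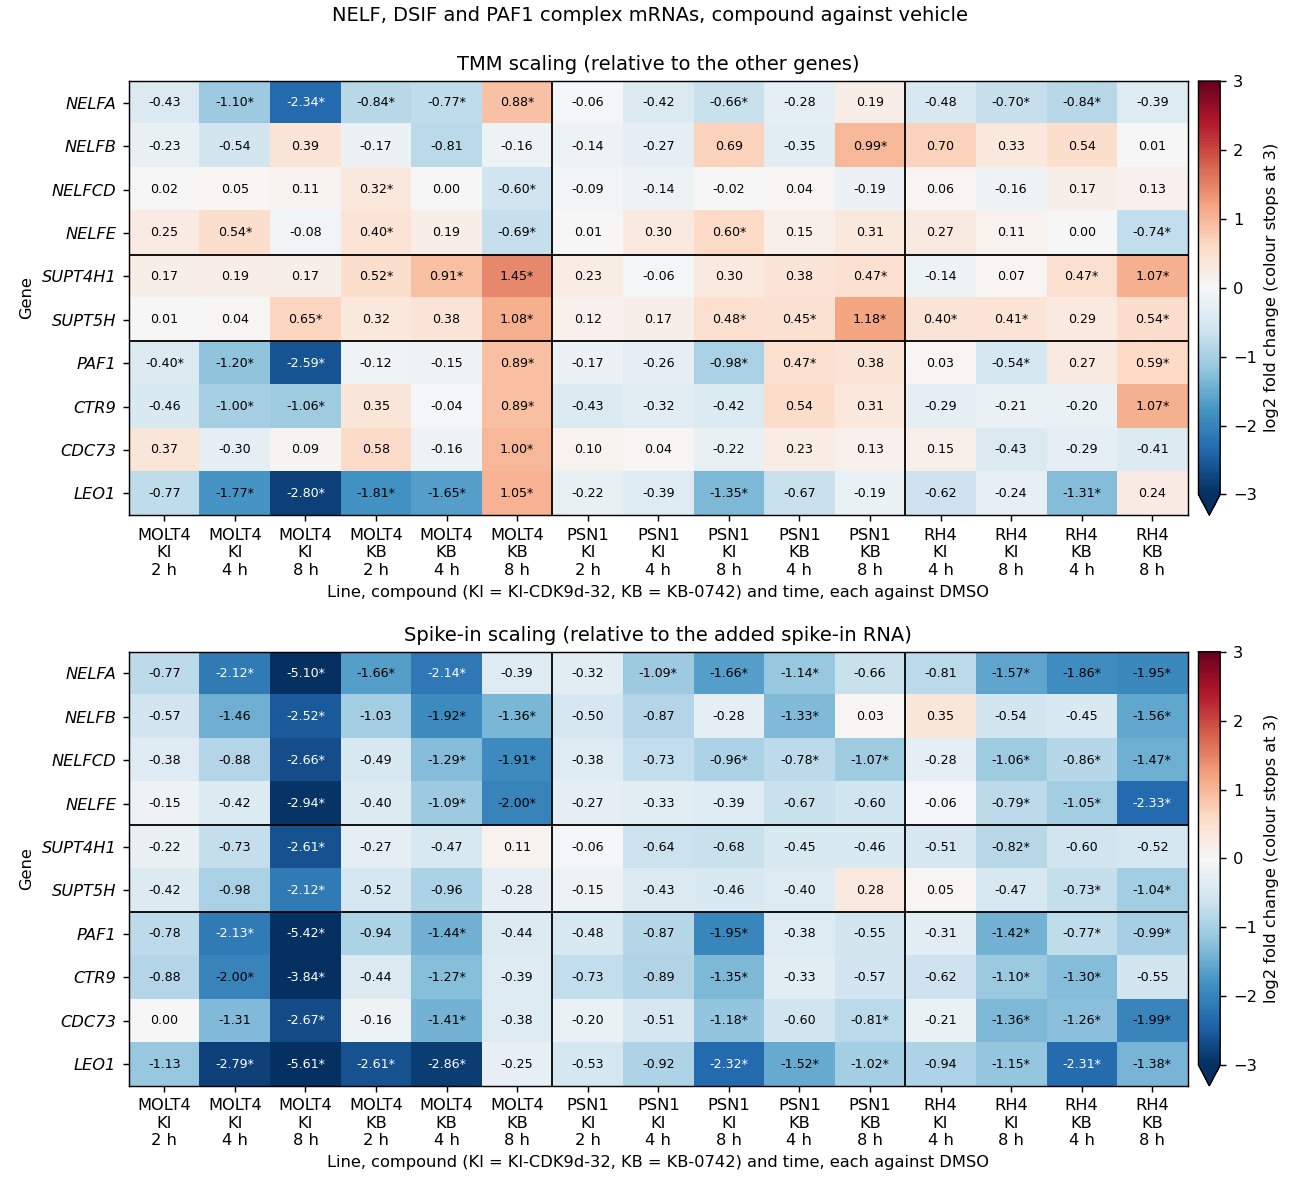
Log2 fold changes of the 10 genes in the 15 comparisons of a compound with DMSO, relative to the other genes of a library (TMM, upper map) and relative to the spike-ins (lower map). KI stands for KI-CDK9d-32 and KB for KB-0742, asterisks mark calls at an edgeR adjusted p under 0.05, and the colour stops at 3 in either direction. In the upper map 7 members are called higher in MOLT4 with KB-0742 at 8 h, and in the lower map 0 members are called higher there and 3 are called lower, against 54.3% of genes called lower.

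Set directly against KB-0742 in MOLT4 at 8 h, KI-CDK9d-32 gave lower transcripts of all 4 PAF1 complex subunits, both DSIF subunits and NELFA, and higher NELFE and NELFCD relative to the other genes (NELFE -0.94 and NELFCD -0.75 with spike-in scaling). These 9 of 10 compare with 58.5% of genes called. LEO1 differed by -3.85 ± 0.40, PAF1 by -3.49 ± 0.18 and NELFA by -3.22 ± 0.22. NELFA averaged 12.9 ± 4.75 CPM with KI-CDK9d-32 and 124 ± 41.4 CPM with KB-0742 (SD, n = 4 each). CTR9 (-1.95 ± 0.25) and SUPT4H1 (-1.28 ± 0.12) were lower without overlap, as they were with spike-in scaling (-3.45 and -2.72). CDC73 (-0.91 ± 0.31) and SUPT5H (-0.43 ± 0.15) overlapped between the groups, and both calls were lost without 1 of 2 libraries of 8 (edgeR adjusted p of 0.0628 and 0.111 without the third KI-CDK9d-32 replicate, the library with the highest spike-in share). NELFB was not called, at 0.55 ± 0.46 with a 95% interval of -0.35 to 1.46.

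At 4 h in MOLT4, PAF1 (-1.05 ± 0.15), CTR9 (-0.96 ± 0.24) and SUPT4H1 (-0.72 ± 0.12) were lower with KI-CDK9d-32 than with KB-0742 and NELFE was higher (0.34 ± 0.11), 4 of 10 against 35.7% of genes. LEO1 differed by -0.12 ± 0.38 (95% interval -0.86 to 0.62) and NELFA by -0.33 ± 0.20 (-0.73 to 0.07) at that time. At 2 h the order for LEO1 was the other way: 16.1, 16.1, 18.8 and 17.2 CPM with KI-CDK9d-32, against 5.58, 13.1, 6.97 and 7.30 CPM with KB-0742 (1.04 ± 0.33, edgeR adjusted p = 0.0196, lost without 1 of 3 libraries of 8). CTR9 was lower with KI-CDK9d-32 at 2 h (-0.82 ± 0.22). NELFCD (-0.30 ± 0.10) and SUPT4H1 (-0.35 ± 0.12) were lower too, but had positive values of 0.10 and 0.05 with spike-in scaling and lost their calls without 1 of 4 and 1 of 5 libraries. That makes 4 of 10 at 2 h, against 18.3% of genes.

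In PSN1, KI-CDK9d-32 lowered PAF1, LEO1 and NELFA at 8 h and raised NELFE and SUPT5H relative to the other genes (-0.39 and -0.46 with spike-in scaling), 5 of 10 members against 20.7% of genes. PAF1 stood at 34.1, 27.9, 30.8 and 28.9 CPM, against 45.6, 49.6, 73.1 and 71.0 CPM with DMSO (-0.98 ± 0.16, edgeR adjusted p = 1.44e-05). LEO1 stood at 5.82, 13.4, 7.71 and 11.5 CPM, against 37.5, 21.6, 20.1 and 19.8 CPM (-1.35 ± 0.29, edgeR adjusted p = 0.000543). Both genes were low in all 4 treated libraries, with no overlap. NELFA was at 22.0, 21.9, 17.2 and 25.9 CPM, against 29.9, 44.1, 29.3 and 34.9 CPM (-0.66 ± 0.21, edgeR adjusted p = 0.0216), a call lost without 1 of 2 libraries of 8 (0.0794 without the second DMSO replicate). NELFE was at 105, 85.5, 105 and 132 CPM against 50.6, 77.6, 73.7 and 78.9 CPM (0.60 ± 0.15). SUPT5H was at 153, 159.5, 116 and 89.2 CPM against 70.1, 102, 106 and 93.0 CPM, with overlap (0.48 ± 0.16), and its call was lost without 1 of 3 libraries (edgeR adjusted p = 0.142 without the first KI-CDK9d-32 replicate). CTR9 (-0.42 ± 0.30) and CDC73 (-0.22 ± 0.25) were not called relative to the other genes. With spike-in scaling 6 of 10 members were called lower, against 51.2% of genes, and these included all 4 PAF1 complex subunits.

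Earlier, 0 of 10 members were called in PSN1 with KI-CDK9d-32. At 2 h edgeR called 0.481% of genes, 0 members had an unadjusted p under 0.05, and DESeq2 called 0. At 4 h edgeR called 7.36% of genes, 2 members had an unadjusted p under 0.05 (NELFA at -0.42 ± 0.21 and NELFE at 0.30 ± 0.15), and DESeq2 called 0, while with spike-in scaling NELFA was called lower (-1.09). The further change from 4 h to 8 h was not called for any member (0.016% of genes, 2 members at an unadjusted p under 0.05, 0 by DESeq2). With KB-0742 in PSN1, SUPT5H had the largest change of a member relative to the other genes: at 8 h it stood at 228, 218, 199 and 195 CPM, against 70.1, 102, 106 and 93.0 CPM with DMSO (1.18 ± 0.16, edgeR adjusted p = 2.49e-07; 0.28 with spike-in scaling, not called). NELFB (0.99 ± 0.34, 0.03 with spike-in scaling) and SUPT4H1 (0.47 ± 0.15, -0.46 with spike-in scaling) were called as well, both with overlap and each lost without 1 of 4 libraries of 8, which makes 3 of 10 against 30.2% of genes. With spike-in scaling 3 other members were called at 8 h, all lower: NELFCD (-1.07), LEO1 (-1.02) and CDC73 (-0.81), against 46.8% of genes called lower. At 4 h, PAF1 rose to 92.7, 93.9, 88.2 and 86.8 CPM, against 71.4, 66.2, 62.5 and 61.1 CPM (0.47 ± 0.15, but -0.38 with spike-in scaling; edgeR adjusted p of 0.0537 without the fourth DMSO replicate). SUPT5H was the other of 2 called at 4 h, against 23.9% of genes (0.45 ± 0.16, -0.40 with spike-in scaling, lost without 1 of 5 libraries). With spike-in scaling 4 of 10 members were called lower at 4 h, at a member median of -0.633, against -0.915 over all genes. That count cannot be read as particular to the members. The KB-0742 effect did not pass the test for a change between 4 h and 8 h in any member (1.88% of genes by edgeR, 2 members at an unadjusted p under 0.05, 1 by DESeq2).

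Between the compounds in PSN1 at 8 h, PAF1 (-1.36 ± 0.16), LEO1 (-1.17 ± 0.29), NELFA (-0.86 ± 0.21) and SUPT5H (-0.69 ± 0.16) were lower with KI-CDK9d-32 than with KB-0742, 4 of 10 against 24.8% of genes, and their values with spike-in scaling were alike (-1.40, -1.30, -1.002 and -0.75). At 4 h PAF1 was lower at 56.1, 60.3, 54.1 and 46.6 CPM, against 92.7, 93.9, 88.2 and 86.8 CPM with KB-0742 (-0.73 ± 0.15, edgeR adjusted p = 0.000375). SUPT4H1 (-0.43 ± 0.15) and CTR9 (-0.86 ± 0.30) were also called at 4 h, but lost the call without 1 of 7 and 1 of 6 libraries of 8. These 3 of 10 compare with 17.4% of genes.

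In RH4 at 8 h, KI-CDK9d-32 lowered NELFA and PAF1 and raised SUPT5H relative to the other genes (3 of 10 members, against 15.2% of genes). SUPT5H was at -0.47 with spike-in scaling, where 8 of 10 members were called lower, against 51.6% of genes. These 8 included all 4 PAF1 complex subunits. NELFA stood at 26.5, 22.5, 25.0 and 27.8 CPM, against 49.1, 38.04, 38.4 and 39.6 CPM with DMSO (-0.70 ± 0.18, edgeR adjusted p = 0.00441). PAF1 stood at 49.0, 66.5, 58.2 and 49.1 CPM, against 72.9, 76.7, 72.0 and 103 CPM (-0.54 ± 0.14, edgeR adjusted p = 0.00565, or 0.056 without the fourth DMSO replicate, which was the highest). Neither pair of groups overlapped. SUPT5H stood at 144, 161, 132 and 179 CPM, against 123, 116, 105 and 119 CPM (0.41 ± 0.11, or an edgeR adjusted p of 0.0693 without the fourth KI-CDK9d-32 replicate). LEO1, which fell in both other lines, was at 15.3, 16.8, 17.2 and 17.4 CPM against 14.9, 17.4, 21.8 and 24.7 CPM in RH4, overlapping with DMSO (-0.24 ± 0.25, 95% interval -0.73 to 0.26), although with spike-in scaling it was called lower (-1.15, at a median of -0.92 over all genes). At 4 h only SUPT5H was called, among 5.36% of genes (0.40 ± 0.11, 0.05 with spike-in scaling), and the call was lost without 1 of 6 libraries of 8. From 4 h to 8 h the effect of KI-CDK9d-32 did not pass the test for any member (0% of genes by edgeR, 1 member at an unadjusted p under 0.05, 0 by DESeq2).

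With KB-0742 for 4 h in RH4, LEO1 was at 4.43, 15.1, 9.33 and 9.41 CPM, against 23.1, 33.0, 23.1 and 15.5 CPM with DMSO (-1.31 ± 0.27, edgeR adjusted p = 0.000236). NELFA was at 19.7, 22.6, 19.6 and 24.8 CPM, against 49.4, 32.5, 33.0 and 40.9 CPM (-0.84 ± 0.18, edgeR adjusted p = 0.000437). SUPT4H1 was higher at 4 h (0.47 ± 0.13, but -0.60 with spike-in scaling), which makes 3 of 10 against 31.6% of genes. LEO1, NELFA and SUPT4H1 were also the 3 members called with this compound at 4 h in MOLT4, relative to the other genes. With spike-in scaling 8 of 10 members were called lower in RH4 at 4 h. The median of the 10 on that scale was -0.956, against -1.12 over all genes, and the count cannot be read as particular to the members. At 8 h, 5 of 10 were called, against 45.4% of genes, and neither LEO1 (0.24 ± 0.26) nor NELFA (-0.39 ± 0.18) was among them, although with spike-in scaling both were called lower (-1.38 and -1.94, at a median of -1.66 over all genes). SUPT4H1 stood at 128, 127, 143 and 113 CPM, against 54.8, 66.4, 67.4 and 54.2 CPM (1.07 ± 0.13, -0.52 with spike-in scaling). NELFE stood at 79.7, 82.9, 81.3 and 84.5 CPM, against 126, 142, 153 and 127 CPM, all 4 treated libraries far below (-0.74 ± 0.11, edgeR adjusted p = 2.15e-07; -2.33 with spike-in scaling). PAF1 (0.59 ± 0.14), CTR9 (1.07 ± 0.26) and SUPT5H (0.54 ± 0.12) rose relative to the other genes, but were at -0.99, -0.55 and -1.04 with spike-in scaling, where PAF1 and SUPT5H were called lower. On that scale 8 of 10 members were called lower at 8 h, against 77.9% of genes. From 4 h to 8 h the KB-0742 effect changed for 4 of 10, against 8.52% of genes: LEO1 by 1.55 ± 0.38 and NELFE by -0.74 ± 0.15, with CTR9 (1.27 ± 0.37) and SUPT4H1 (0.60 ± 0.19) losing the call without 1 of 5 and 1 of 11 of the 16 libraries.

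**Figure D4:**
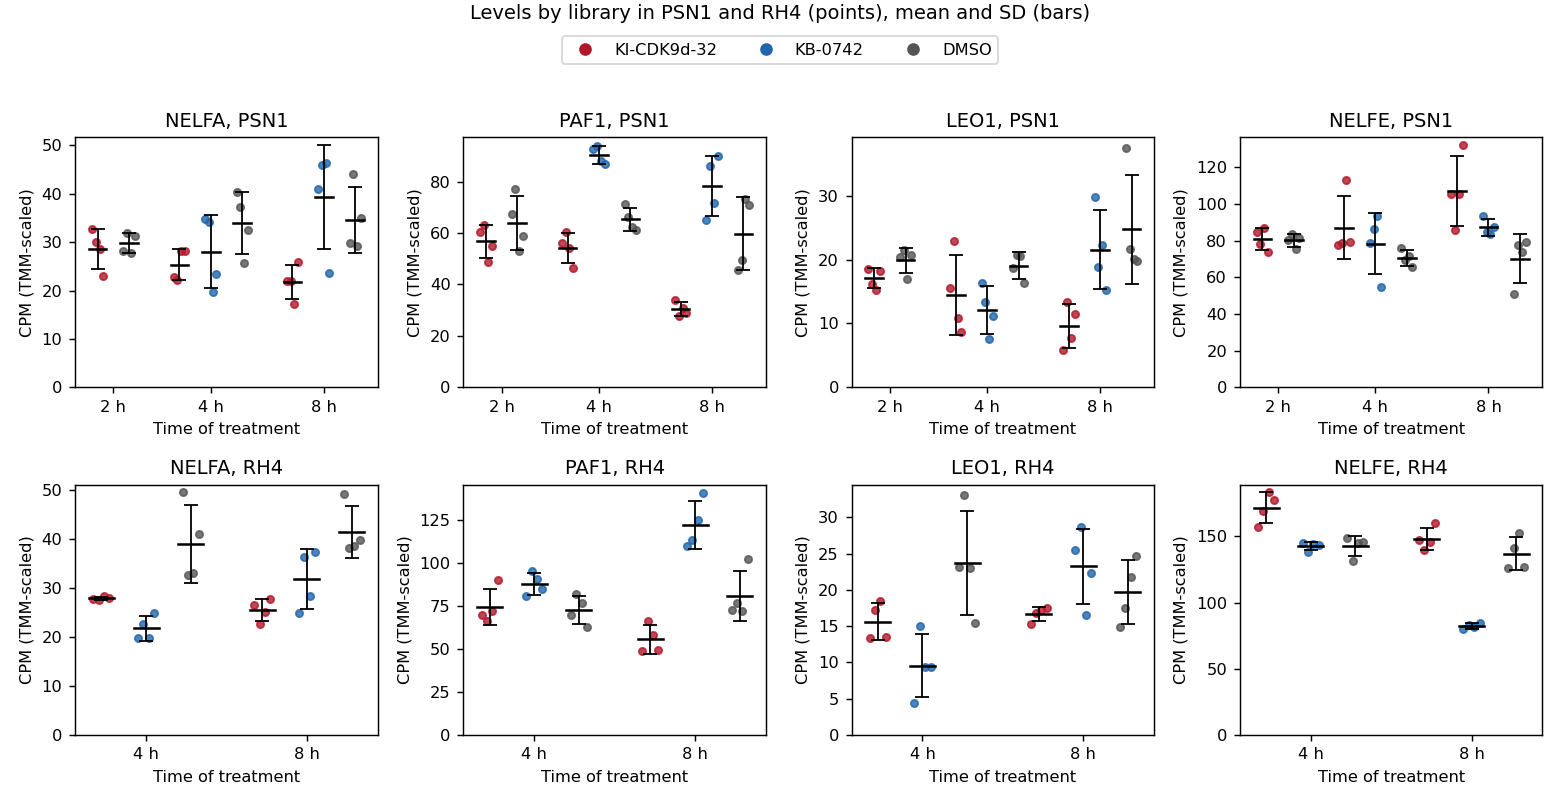
Levels in CPM of NELFA, PAF1, LEO1 and NELFE in each PSN1 and RH4 library, with KI-CDK9d-32 left, KB-0742 in the middle where it was given, and DMSO right at each time. Points are libraries and bars the mean ± SD (n = 4). In PSN1 at 8 h the PAF1 libraries lie at 27.9 to 34.1 CPM with KI-CDK9d-32 and 65.1 to 90.0 CPM with KB-0742, against 45.6 to 73.1 CPM with DMSO, on a scale relative to the other genes.

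Set against KB-0742 in RH4 at 8 h, KI-CDK9d-32 gave higher NELFE (0.85 ± 0.11, edgeR adjusted p = 2.36e-08) and lower CTR9 (-1.27 ± 0.27), PAF1 (-1.13 ± 0.14) and SUPT4H1 (-1.01 ± 0.14), without overlap between the libraries. NELFCD (-0.30 ± 0.12) was called with overlap, lost the call without 1 of 5 libraries of 8, and was at 0.41 with spike-in scaling. These 5 of 10 compare with 38.4% of genes. On the spike-in scale the median of all genes was 0.71 higher with KI-CDK9d-32 than with KB-0742 in RH4, and there NELFE (1.54) and NELFB (1.02) were called higher and 0 members lower, against 39.6% of genes called in either direction. At 4 h, SUPT4H1 was lower (-0.61 ± 0.13, but 0.09 with spike-in scaling) and NELFE higher (0.27 ± 0.10, lost without 1 of 7 libraries of 8), 2 of 10 against 25.8% of genes.

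**Figure D5:**
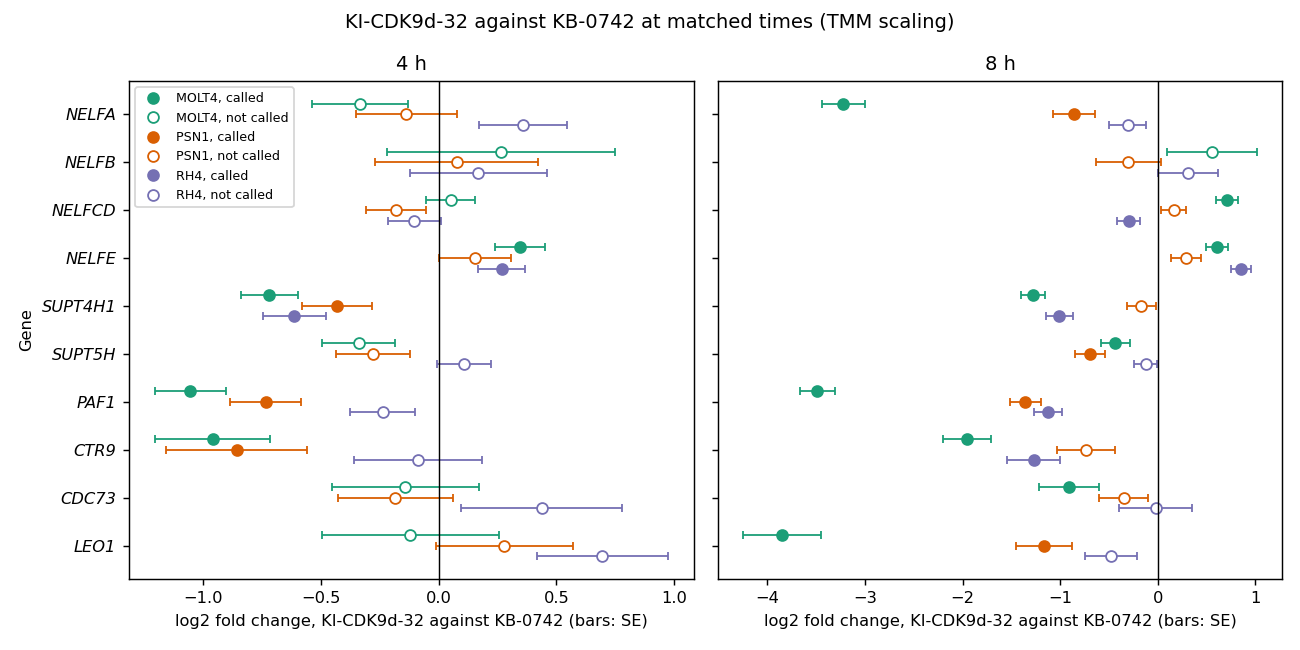
Log2 difference of each gene between KI-CDK9d-32 and KB-0742 at 4 h and 8 h in MOLT4, PSN1 and RH4, relative to the other genes (TMM). Points are fitted values, bars ± SE (n = 4 libraries a group), and filled points passed an edgeR adjusted p under 0.05. At 8 h PAF1 lies at -3.49, -1.36 and -1.13 in the 3 lines (-4.99, -1.40 and -0.43 with spike-in scaling, the last not called).

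Over the 7 matched comparisons of the compounds, SUPT4H1 was lower with KI-CDK9d-32 in 6, and PAF1 and CTR9 in 5 each, while NELFE was higher in 4, all relative to the other genes. With spike-in scaling SUPT4H1 turned positive in MOLT4 at 2 h and RH4 at 4 h (0.05 and 0.09), and NELFE turned negative in MOLT4 at 8 h (-0.94). On that scale SUPT4H1 and CTR9 were called lower in 1 comparison each and PAF1 in 2, and NELFE was called higher in 2. Against DMSO, SUPT4H1 was called higher in 6 of 7 comparisons of KB-0742 and in 0 of 8 of KI-CDK9d-32. Relative to the spike-ins it was called in none of those 6 and was below 0 in 5 of them. SUPT5H was called higher with either compound, in 4 of 8 comparisons of KI-CDK9d-32 and 4 of 7 of KB-0742, but was below 0 with spike-in scaling in all except RH4 with KI-CDK9d-32 at 4 h (0.05) and PSN1 with KB-0742 at 8 h (0.28). NELFA was lower in 4 of 8 with KI-CDK9d-32 and 3 of 7 with KB-0742, and LEO1 in 3 of 8 and 3 of 7. PAF1 was lower in 5 of 8 with KI-CDK9d-32 and in 0 of 7 with KB-0742, where it was higher in 3 relative to the other genes and below 0 in all 3 with spike-in scaling. With spike-in scaling PAF1 was called lower in 4 of 8 and 3 of 7, NELFA in 5 of 8 and 5 of 7, and LEO1 in 4 of 8 and 6 of 7, for KI-CDK9d-32 and KB-0742 in that order. CDC73, NELFB and NELFCD were called in 0 of 8 comparisons of KI-CDK9d-32 with DMSO relative to the other genes, and were called lower in 3, 1 and 3 of 8 with spike-in scaling. The comparisons of both compounds share their DMSO libraries, and the values are set side by side only.

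The lines were compared at 8 h in 1 fit of all libraries. With KI-CDK9d-32 the effect in MOLT4 was lower than in PSN1 for NELFA (-1.61 ± 0.30, edgeR adjusted p = 1.42e-05), PAF1 (-1.54 ± 0.24, 3.1e-07), NELFE (-0.61 ± 0.17, 0.00582) and LEO1 (-1.38 ± 0.51, 0.0497), 4 of 10 against 17.6% of genes. The NELFE call was lost without replicate 1 of every group (edgeR adjusted p = 0.155), and the LEO1 call without 1 of 2 replicate numbers of 4 (0.455 without replicate 4). Relative to RH4 the effect in MOLT4 was lower for LEO1 (-2.50 ± 0.49), PAF1 (-1.998 ± 0.23) and NELFA (-1.59 ± 0.29), 3 of 10 against 16.7% of genes, with 3 called in each of the 4 refits without 1 replicate number. Between PSN1 and RH4, edgeR called 0.573% of genes and 0 members, with 3 members at an unadjusted p under 0.05 and 0 by DESeq2. On the spike-in scale the values were -3.48 and -4.01 for PAF1 and -3.45 and -3.54 for NELFA against PSN1 and RH4, where the medians of all genes were themselves at -1.81 and -1.91.

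For KB-0742 at 8 h the lines differed in other members. NELFE fell in MOLT4 and RH4 and was not called in PSN1 (0.31 ± 0.15), and its effect was lower in MOLT4 than in PSN1 (-1.08 ± 0.17, edgeR adjusted p = 1.35e-06) and higher in PSN1 than in RH4 (1.12 ± 0.18, edgeR adjusted p = 5.35e-06). SUPT4H1 rose more in MOLT4 than in PSN1 (0.89 ± 0.18, 0.57 with spike-in scaling), and NELFA had a higher effect in MOLT4 than in RH4 (1.26 ± 0.26, 1.55 with spike-in scaling). NELFCD was lower in MOLT4 than in RH4 (-0.75 ± 0.17) and PSN1 (-0.50 ± 0.17), with the call lost without 1 and 3 of the 4 replicate numbers. LEO1 in MOLT4 against PSN1 (1.15 ± 0.39), CDC73 in MOLT4 against RH4 (1.39 ± 0.42) and SUPT5H in PSN1 against RH4 (0.71 ± 0.21) lost the call without 1 of 3, 4 and 3 of the replicate numbers. In all, 4, 3 and 2 members were called, against 12.3% (MOLT4 and PSN1), 9.36% (MOLT4 and RH4) and 7.81% (PSN1 and RH4) of genes, and with spike-in scaling 0 of them were called (2.12%, 0.705% and 1.57% of genes in the same order).

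Another 35 genes of pausing and elongation were listed beside the members: P-TEFb and the 7SK particle that holds it inactive, elongation factors and histone chaperones, enzymes of H2B ubiquitylation and H3K36 methylation, phosphatases and termination factors, and both remaining PAF1 complex partners. With KI-CDK9d-32 at 8 h, 9 rose and 8 fell in MOLT4, 6 rose and 7 fell in PSN1, and 4 rose and 3 fell in RH4, relative to the other genes. With KB-0742 at 8 h, 16 rose and 9 fell in MOLT4, 13 rose and 7 fell in PSN1, and 17 rose and 10 fell in RH4. Of all genes tested, the shares called in either direction were 49.6%, 20.7% and 15.2% (KI-CDK9d-32) and 49.2%, 30.2% and 45.4% (KB-0742) in the same order of lines. On the spike-in scale 0, 0 and 0 of the 35 were called higher and 35, 20 and 19 lower with KI-CDK9d-32 in MOLT4, PSN1 and RH4, against 91%, 51.2% and 51.6% of all genes called lower. For KB-0742, 1, 2 and 1 were called higher and 18, 17 and 23 lower on that scale, against 54.3%, 46.8% and 77.9% of all genes called lower. The medians over the 35 in MOLT4 at 8 h were 0.06 for KI-CDK9d-32 and 0.27 for KB-0742, or -2.82 and -1.05 with spike-in scaling. MEPCE, the enzyme that caps 7SK RNA, fell with KI-CDK9d-32 at 8 h in MOLT4 (-2.90 ± 0.48), PSN1 (-1.62 ± 0.35) and RH4 (-2.04 ± 0.41). IWS1, a partner of the elongation factor SPT6, fell in MOLT4 (-2.50 ± 0.26), as did POLR2M (-1.45 ± 0.32). In PSN1, RPAP2, a phosphatase of the polymerase tail, fell (-1.42 ± 0.27), as did HEXIM2, a P-TEFb inhibitor (-2.58, lost without 1 of 5 libraries). In RH4, the cyclin gene CCNT2 rose (1.37 ± 0.26; 0.50 with spike-in scaling, not called) and LARP7, which binds 7SK, fell (-1.001 ± 0.31, lost without 1 of 4 libraries).

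With KB-0742 at 8 h the listed genes with the largest rises were CCNT2 in MOLT4 (2.73 ± 0.29) and PSN1 (2.13 ± 0.29) and CCNT1 in RH4 (2.61 ± 0.24), and these were called higher with spike-in scaling as well (1.41, 1.22 and 1.06). RECQL5, a helicase that binds the polymerase, fell in MOLT4 (-2.36 ± 0.43), PSN1 (-3.41 ± 0.43) and RH4 (-2.16 ± 0.33). HEXIM2 fell in MOLT4 (-2.15 ± 0.87, lost without 1 of 5 libraries), MEPCE in PSN1 (-1.98 ± 0.36) and UBE2B, a ubiquitin-conjugating enzyme of H2B, in RH4 (-1.96 ± 0.25). RTF1, the PAF1 complex partner with the Plus3 domain, rose with KB-0742 at 8 h in MOLT4 (1.05), PSN1 (0.88) and RH4 (1.34) relative to the other genes, though at -0.27, -0.03 and -0.23 with spike-in scaling. SKIC8, the other partner, was called lower in each line at the same time, at -1.15, -0.33 and -0.39. With spike-in scaling its values were -2.443, -1.215 and -1.989 in the same order of lines. With KI-CDK9d-32, RTF1 was not called in any of the 8 comparisons relative to the other genes, but with spike-in scaling it was called lower at 8 h in MOLT4 (-2.95), PSN1 (-0.91) and RH4 (-1.20), as was SKIC8.

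The course of each member over the 15 comparisons with DMSO was also set beside that of 9338 genes tested in all 3 lines, by the root mean square (RMS) difference of their log2 fold changes, as a description. The nearest gene to PAF1 was IWS1 (RMS 0.276), to NELFA ZNF330 (0.225), to LEO1 NIFK (0.322), to CTR9 NIP7 (0.259), to SUPT4H1 RWDD1 (0.175) and to SUPT5H SF1 (0.192). NELFE lay nearest to GRHPR (0.157), NELFCD to MTHFD1 (0.111), NELFB to SGTA (0.318) and CDC73 to MYSM1 (0.271). No member was the nearest gene of another. For LEO1 the nearest member was NELFA, of the other complex, in place 17 among all genes (RMS 0.526), while PAF1, its partner, was in place 518 (0.837). The nearest member to PAF1 was CTR9, in place 148 (0.496), and SUPT4H1 and SUPT5H were 0.371 apart, in places 287 and 308. Within NELF, NELFCD and NELFE were 0.378 apart, in places 789 and 480, whereas NELFA was 1.04 from NELFB, 0.976 from NELFCD and 1.08 from NELFE. The points share DMSO libraries, lines and depth, so these distances are descriptions only.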

How the data were processed

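Bulk RNA was sequenced from lysates of about 1000 seeded cells, to which a fixed amount of a commercial ERCC and SIRV spike-in mix had been added, with a reduced-volume SMART-seq2 protocol and tagmentation, per the labels' protocols. Per the submitters' processing notes, reads were quantified with Salmon against hg38, and the annotation release is not given in the sources used here. The authors deposited 2 tables over 62856 entries and 91 libraries: estimated counts, which are whole numbers as deposited, and TPM on a log2 scale after a pseudocount of 1 was added. Reads carry no molecular identifiers, so errors from counting alone are a lower limit. Of the 62757 gene entries, 47 copies on the Y pseudoautosomal regions were left out, and 92 ERCC and 7 SIRV entries served as spike-ins.

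Counts were tested with edgeR 4.0.16 (quasi-likelihood F test, robust, TMM factors, filterByExpr with a minimum count of 10, Benjamini-Hochberg adjustment over all genes tested, threshold 0.05) in R 4.3.3, with 1 fit per line holding all its groups and 1 joint fit of all libraries for differences between lines. In MOLT4, PSN1 and RH4, 11664, 12471 and 12058 genes were tested (15881 jointly), which set aside 0.437%, 0.584% and 0.683% of the counts. All 10 members passed this filter in every line. Standard errors are the size of the log2 fold change divided by the square root of F. TPM for vehicle levels was rescaled to genes alone. With TPM as deposited, 10 of the vehicle means moved by at least their SD and 20 by less. NELFE in MOLT4, for example, was then at 202 TPM instead of 246 TPM. Alternatives were spike-in scaling, DESeq2 1.42.0, no filter, the replicate number as a block, leaving out each library, and, added after seeing the data, leaving out 3 MOLT4 libraries with a spike-in share above 38%. Replicate numbers were not used to pair the samples in the main fits. After group means were taken out, same-numbered libraries correlated above 0.1 in 0 of 136, 24 of 112 and 10 of 60 pairs. Their median correlations were 0.0218, 0.0654 and 0.0545 in MOLT4, PSN1 and RH4, against -0.00947, -0.03 and -0.0253 for differently numbered libraries. Same-numbered libraries were thus slightly more alike in each line. No 2 replicates were alike within sampling noise.

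The members and gene lists were chosen with earlier results of these data known. Any of the 10 members could be named in the 15 comparisons with DMSO and the 7 between compounds, and called members are named in each. Of the other 35 genes, up to 3 called ones with the largest change are named per comparison described, and RTF1, SKIC8 and EIF4G2 were named after their values were seen. Gene positions are those of GENCODE 29, matched by identifier, and promoters those of RefSeq, matched by symbol. The series' design text names RH1 where the sample labels name RH4, and the labels were followed.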

Additional observations from a re-analysis of the deposited data

Results flagged for a closer look

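Of 242 groups of 4 libraries checked, 14 held 1 library far from the other 3 (a gap to the nearest library above Dixon's critical value), and chance alone marks about 1 group in 20. For NELFA, the second MOLT4 DMSO library at 2 h was low at 50.8 CPM against 64.2 to 66.2 in the others, and the first RH4 DMSO library at 8 h was high at 49.1 CPM, with the next at 39.6 CPM. NELFB was high in the fourth PSN1 KB-0742 library at 4 h (15.4 against 5.33 to 6.44 CPM), and NELFE in the third PSN1 KI-CDK9d-32 library at 4 h (113 against 77.8 to 79.3 CPM). PAF1 was marked in 5 groups. In MOLT4 it was low at 43.7 CPM in the second KI-CDK9d-32 library at 2 h (65.6 to 67.7 in the others) and at 112 CPM in the fourth KB-0742 library at 8 h (133 to 135), and high at 12.2 CPM in the second KI-CDK9d-32 library at 8 h (all others 11.1) and at 85.8 CPM in the first DMSO library at 8 h (62.4 to 64.1). In RH4 it was high at 103 CPM in the fourth DMSO library at 8 h (72.0 to 76.7). The gap in the MOLT4 KI-CDK9d-32 group at 8 h is small in size because the other 3 libraries nearly coincide. CTR9 was high in the second PSN1 DMSO library at 4 h (17.7 against 9.53 to 10.7 CPM), and LEO1 in the first PSN1 DMSO library at 8 h (37.6 against 19.8 to 21.6 CPM). The spike-in share was high in the third MOLT4 KB-0742 library at 4 h (49.4% against 16.3 to 20.9%) and the fourth PSN1 KB-0742 library at 8 h (22.4% against 14.7 to 15.9%), and low in the fourth MOLT4 DMSO library at 8 h (11.7% against 15.3 to 15.8%).

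Effects differed between times or lines in 31 of 120 tests of the difference itself (edgeR's quasi-likelihood test). Over all genes tested, the share called in these comparisons ran from 0% to 17.8%. With spike-in scaling, 0 of the KB-0742 differences were called. Several of these calls were lost when libraries were left out, as given with each result above. Between 8 h and 4 h in MOLT4 with KI-CDK9d-32, the effect differed by -1.39 for PAF1, -1.24 for NELFA and -0.62 for NELFE. In MOLT4 with KB-0742 it differed by 2.70 for LEO1, 1.65 for NELFA, 1.04 for PAF1, 0.93 for CTR9, 0.70 for SUPT5H, 0.54 for SUPT4H1, -0.60 for NELFCD and -0.89 for NELFE. In RH4 with KB-0742 it differed by 1.55 for LEO1, 1.27 for CTR9, 0.60 for SUPT4H1 and -0.74 for NELFE. Between lines at 8 h with KI-CDK9d-32, MOLT4 minus PSN1 was -1.61 for NELFA, -1.54 for PAF1, -1.38 for LEO1 and -0.61 for NELFE, and MOLT4 minus RH4 was -2.50 for LEO1, -1.998 for PAF1 and -1.59 for NELFA. With KB-0742, MOLT4 minus PSN1 was 1.15 for LEO1, 0.89 for SUPT4H1, -0.50 for NELFCD and -1.08 for NELFE, MOLT4 minus RH4 was 1.39 for CDC73, 1.26 for NELFA and -0.75 for NELFCD, and PSN1 minus RH4 was 1.12 for NELFE and 0.71 for SUPT5H. The spike-in share also differed between lines with KI-CDK9d-32 at 8 h, at 39.9% in MOLT4 against 17.3% in PSN1 and 12.9% in RH4. With KB-0742 the mean share went from 26.2% at 4 h to 21.5% at 8 h in MOLT4, and from 13.4% to 15.1% in RH4. The part of the spike-in share in the differences was not tested.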

How the results depend on the processing

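Spike-in scaling changed the most: of 340 values, 134 stayed alike and 54 changed sign with a call on at least 1 scale. Another 76 changed sign without a call on either scale. The signs listed here are those of the 54. In MOLT4 the signs that turned with KI-CDK9d-32 were NELFE at 4 h (-0.42), and at 8 h CDC73 (-2.67), NELFCD (-2.66), SUPT4H1 (-2.61), NELFB (-2.52) and SUPT5H (-2.12). With KB-0742 they were NELFCD (-0.49), NELFE (-0.40) and SUPT4H1 (-0.27) at 2 h, NELFCD (-1.29), NELFE (-1.09) and SUPT4H1 (-0.47) at 4 h, and PAF1 (-0.44), NELFA (-0.39), CTR9 (-0.39), CDC73 (-0.38), SUPT5H (-0.28) and LEO1 (-0.25) at 8 h. Between the compounds they were NELFCD (0.10) and SUPT4H1 (0.052) at 2 h and NELFE (-0.94) and NELFCD (-0.75) at 8 h. In PSN1 they were NELFCD (-0.78), SUPT5H (-0.40) and PAF1 (-0.38) with KB-0742 at 4 h, SUPT5H (-0.46) and NELFE (-0.39) with KI-CDK9d-32 at 8 h, and CDC73 (-0.81) and SUPT4H1 (-0.46) with KB-0742 at 8 h. In RH4 they were NELFE (-1.05), NELFCD (-0.86), PAF1 (-0.77), SUPT5H (-0.73) and SUPT4H1 (-0.60) with KB-0742 at 4 h, SUPT4H1 (-0.82), NELFE (-0.79) and SUPT5H (-0.47) with KI-CDK9d-32 at 8 h, NELFB (-1.56), NELFCD (-1.47), LEO1 (-1.38), SUPT5H (-1.04), PAF1 (-0.99), CTR9 (-0.55) and SUPT4H1 (-0.52) with KB-0742 at 8 h, and SUPT4H1 (0.085 at 4 h) and NELFCD (0.41 at 8 h) between the compounds. Differences of effects that turned were NELFCD from 4 h to 8 h with KI-CDK9d-32 in MOLT4 (-1.78), and for this compound at 8 h NELFCD (-1.71), SUPT5H (-1.66) and CDC73 (-1.50) in MOLT4 against PSN1, and NELFB (-1.98), SUPT4H1 (-1.78), SUPT5H (-1.65) and NELFCD (-1.60) in MOLT4 against RH4.

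With spike-in scaling the members called in MOLT4 came to 0 (KI-CDK9d-32), 2 (KB-0742) and 0 (between them) at 2 h, 8 (KB-0742) and 0 (between them) at 4 h, and 10 (KI-CDK9d-32) and 3 (KB-0742) at 8 h. In PSN1 they came to 1 (KI-CDK9d-32), 4 (KB-0742) and 0 (between) at 4 h and 2 (between) at 8 h, and in RH4 to 0, 8 and 5 at 4 h and 8, 8 and 2 at 8 h, in the same order. The change from 4 h to 8 h was called for 7 (KI-CDK9d-32 in MOLT4), 0 (KB-0742 in MOLT4) and 0 (KB-0742 in RH4), and the line difference for 10 and 9 (MOLT4 against PSN1 and RH4, KI-CDK9d-32) and 0 in each KB-0742 pair. At 8 h, 91% and 54.3% of all genes were called lower on this scale in MOLT4, and 51.6% and 77.9% in RH4 (KI-CDK9d-32 and KB-0742). Medians over all genes were -1.79 for the KI-CDK9d-32 change in MOLT4 and -1.81 and -1.91 for its line differences, in that order. Where no share of all genes is given, the counts cannot be read as particular to the members. The same holds for the counts below with DESeq2, without a filter, with the block and with libraries left out. DESeq2 called 2 in MOLT4 with KI-CDK9d-32 at 2 h, 2 in RH4 with it at 4 h and 1 in PSN1 for the KB-0742 change between times. Without a filter, counts came to 2 (MOLT4 between compounds, 2 h), 0 (PSN1 KB-0742, 4 h), 1 (PSN1 between compounds, 4 h), 1 (PSN1 KB-0742, 8 h), 0 (RH4 KI-CDK9d-32, 4 h), 1 (RH4 between compounds, 4 h), and 1 and 1 (KB-0742, MOLT4 and PSN1 against RH4). Libraries of the same replicate number were slightly more alike than others. With the replicate numbers as a block, counts came to 2 (MOLT4 KI-CDK9d-32, 2 h), 4 (PSN1 KB-0742, 4 h), 2 (RH4 KI-CDK9d-32, 4 h) and 1 (PSN1, KB-0742 change between times), and 328 of 340 values stayed alike.

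Leaving out 1 library at a time gave, in MOLT4, 0 to 2 (KI-CDK9d-32), 4 to 5 (KB-0742) and 1 to 4 (between) at 2 h, 5 to 5, 3 to 4 and 4 to 5 at 4 h, and 5 to 6, 9 to 9 and 7 to 9 at 8 h. In PSN1 it gave 0 to 0 (KI-CDK9d-32, 2 h and 4 h), 0 to 3 (KB-0742) and 1 to 2 (between) at 4 h, and 4 to 5, 1 to 4 and 4 to 4 at 8 h. In RH4 it gave 0 to 1, 3 to 4 and 1 to 2 at 4 h, and 2 to 3, 5 to 6 and 4 to 5 at 8 h. Changes between times came to 3 to 4 and 5 to 9 (MOLT4), 0 to 0 and 0 to 1 (PSN1) and 0 to 0 and 2 to 4 (RH4), and line differences to 3 to 4, 3 to 3 and 0 to 0 (KI-CDK9d-32) and 2 to 3, 1 to 2 and 1 to 2 (KB-0742). Without the 3 MOLT4 libraries of high spike-in share, SUPT4H1 with KI-CDK9d-32 at 4 h (0.32) and NELFCD at 8 h (0.25) were also called, as were the changes between times of SUPT5H with KI-CDK9d-32 (0.75) and CDC73 with KB-0742 (1.16), while CDC73 (-0.65) and SUPT5H (-0.27) lost the call between compounds at 8 h. The cause of these changes was not tested. Depth limits NELFB, CTR9, CDC73 and LEO1, whose lowest counts in a library were 3, 7, 4 and 0, and where changes within the printed errors were not detectable.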
